A study of Homo sapiens with 4 samples.

Results

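Inhibitors of cyclin-dependent kinases (CDKs) were followed across the 4 arrays of a study of Panc1 cells, an established human pancreatic cancer line. The genes were CDKN1A, CDKN1B, CDKN1C, CDKN2B, CDKN2C and CDKN2D, and every probe set that the platform annotation pairs with 1 of them and no other gene was taken. That gave 11 probe sets, out of 41097 that name a single gene, for 5 of the 6 members and of 19775 genes in all; the annotation used here lists no probe set for CDKN2C, which was not analysed here. All cells grew in RPMI1640 medium with fetal bovine serum. The 4 conditions were untreated cells and cells exposed for 24 hours to romidepsin, an inhibitor of histone deacetylases, to tamoxifen, a selective estrogen receptor modulator, or to both drugs. Each condition had 1 array, whose labels give neither a dose nor a vehicle for the untreated cells. The design asks what each drug does to expression alone and what it adds to the other.

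CDK inhibitors hold back the cell cycle by binding the kinases that drive it. The CIP/KIP proteins p21 (CDKN1A), p27 (CDKN1B) and p57 (CDKN1C) bind cyclin and kinase together, chiefly CDK2 with cyclins E and A, and also help D-type cyclins to assemble with CDK4 and CDK6. The INK4 proteins p15 (CDKN2B), p18 (CDKN2C) and p19 (CDKN2D) bind CDK4 and CDK6 alone and keep D-type cyclins off them. Held in check, these kinases leave the retinoblastoma protein unphosphorylated, so that it represses E2F target genes. CDKN1A is a well-known target of histone deacetylase inhibitors in many cell types, while p27 is set largely by protein degradation, which arrays do not read.

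Values are MAS5 signals, in which the probes of a set are combined into 1 intensity, and each array was scaled by the authors to the same mean. A floor was placed at 66.4, the middle of the signals of every non-control probe set, and weaker signals were raised to it because they have no reliable order. Rises and falls are differences of 2-fold or more from 1 array to another. With no replicates there is no test, and each fold describes 2 arrays only. The measurable spread was technical: 2 probe sets of the same gene differed in their log2 folds by a median of 0.21 to 0.29 over the 5 comparisons, depending on the comparison. The arrays read RNA of whole cultures, so a change in each cell and a change in the make-up of the culture cannot be told apart.

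Of the 11 probe sets, 7 lay above the floor on all 4 arrays and 4 lay below it on all 4, so that 4 genes could be measured. The 5 probe sets of CDKN1C include 4 of those above the floor. CDKN1A, CDKN1B and CDKN2D rest on 1 probe set above the floor each, and those of CDKN1A and CDKN2D are of a class that can match several transcripts. The upstream sequences of 3 measured genes are shown because their signals went in different directions with romidepsin, up for CDKN1A and CDKN2D and down for CDKN1B. They are the 250 bases before the start site in the RefSeq promoter table (GRCh38.p14), which held 5 of the 6 genes. The gene without an entry was CDKN1C, whose signal also rose with romidepsin. The sequences lie at chr6:36678464-36678713 on the plus strand for CDKN1A, at chr19:10568980-10569229 on the minus strand for CDKN2D and at chr12:12717118-12717367 on the plus strand for CDKN1B. Capitals mark the GC box, the letters GGGCGG on either strand, a motif bound by the SP1 family.
CDKN1A: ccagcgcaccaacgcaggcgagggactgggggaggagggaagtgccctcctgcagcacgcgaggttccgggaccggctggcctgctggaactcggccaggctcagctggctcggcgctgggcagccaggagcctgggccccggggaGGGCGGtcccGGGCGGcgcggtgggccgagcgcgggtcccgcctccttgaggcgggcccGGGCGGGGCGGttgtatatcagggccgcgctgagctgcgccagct
CDKN2D: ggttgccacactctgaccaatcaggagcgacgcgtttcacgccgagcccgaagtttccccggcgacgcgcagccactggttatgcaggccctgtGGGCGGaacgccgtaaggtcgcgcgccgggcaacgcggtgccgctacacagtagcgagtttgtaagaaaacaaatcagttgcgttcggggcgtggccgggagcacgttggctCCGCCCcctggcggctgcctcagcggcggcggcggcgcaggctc
CDKN1B: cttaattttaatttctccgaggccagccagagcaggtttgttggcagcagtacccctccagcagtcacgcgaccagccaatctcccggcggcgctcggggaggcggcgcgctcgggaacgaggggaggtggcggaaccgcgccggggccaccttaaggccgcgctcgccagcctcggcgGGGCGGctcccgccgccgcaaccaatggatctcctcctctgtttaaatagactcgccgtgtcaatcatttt

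The CDKN1A sequence held 4 GC boxes, which began at positions -104, -94, -45 and -40 from the start site; the pair nearest the start shares 1 base. CDKN2D held 2, at -156 and -44 (the latter on the opposite strand), and CDKN1B held 1, at -71. The window of CDKN2B, a gene below the floor on every array, also held 2. Among 35116 RefSeq upstream windows of the same length, 42.6% held at least 1 GC box, 24.3% at least 2 and 7.63% at least 4. The CCAAT box (CCAAT or ATTGG) matched 2 times in CDKN1B and 1 time in CDKN2D, against at least 1 match in 32.0% of windows. No TATAAA, TGACGTCA or CACGTG was found on either strand of the 3 windows shown. The bases G and C made up 76.4% of the CDKN1A window, 67.6% of that of CDKN2D and 64.4% of that of CDKN1B, with a median of 58% over all windows. A match describes letters and is not a measured binding site.

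**Figure D1:**
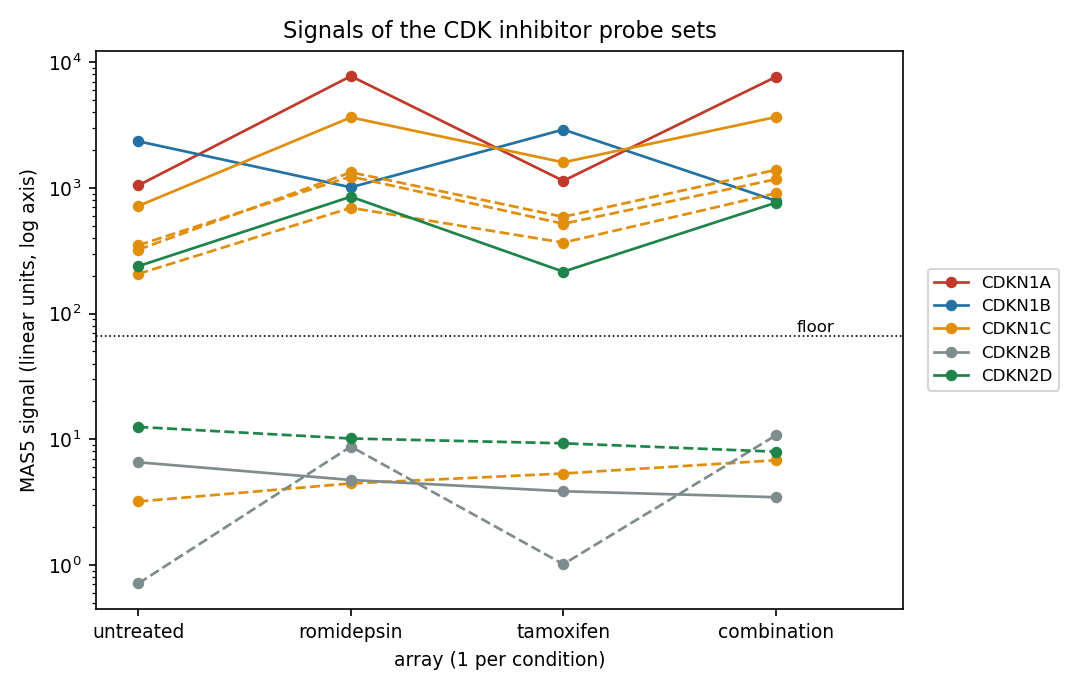
MAS5 signal (log axis) of each of the 11 CDK inhibitor probe sets on the 4 arrays, 1 array per condition; lines join the values of a probe set, solid for the brightest probe set of a gene and dashed for the others, and the dotted line is the floor of 66.4. CDKN1A, CDKN1C and CDKN2D sit higher with romidepsin and with the combination than untreated, CDKN1B sits lower, and both CDKN2B probe sets stay below the floor.

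CDKN1A, which encodes p21, had a signal of 1047 in untreated cells, 7755 with romidepsin, 1138 with tamoxifen and 7644 with the combination. The arrays thus fell into a high pair with romidepsin and a low pair without it, with no value in between. Romidepsin raised the signal 7.41-fold over untreated cells, and the combination stood 6.72-fold above tamoxifen. Of 13619 genes measured with romidepsin, 177 rose at least as far, or 1.3%. Within the pairs the difference was small: tamoxifen was 1.09-fold above untreated cells and the combination 1.01-fold below romidepsin. The sign of both small differences changed with the scaling of the arrays, with log2 values from -0.03 to 0.48 for the former and from -0.13 to 0.29 for the latter.

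CDKN1C, which encodes p57 and is imprinted in human tissues, was the measured inhibitor with the most probe sets. Its brightest probe set read 718 untreated, 3642 with romidepsin, 1598 with tamoxifen and 3662 with the combination. Romidepsin and the combination gave the same level to within 1.01-fold, and tamoxifen alone lay between them and the untreated array. The romidepsin rise was 5.07-fold and the tamoxifen rise 2.23-fold. The 3 other probe sets above the floor rose 3.35-fold to 4.13-fold with romidepsin. With tamoxifen they were 1.48-fold, 1.77-fold and 1.82-fold higher, all short of 2-fold, so that the tamoxifen rise was called on 1 of 4 probe sets. Those 3 belong to that class too, and the fifth probe set, with signals of 3.20 to 6.80, was below the floor on every array.

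CDKN1B, which encodes p27, went the other way. Its signal was 2350.0 untreated, 1010.4 with romidepsin, 2913 with tamoxifen and 791 with the combination. Both arrays with romidepsin were below both arrays without it. The fall was 2.33-fold with romidepsin over untreated cells, and 3.69-fold with the combination over tamoxifen. Among 13619 genes, 801 fell at least as far with romidepsin, or 5.88%. Tamoxifen alone was 1.24-fold above untreated cells, whereas the combination was 1.28-fold below romidepsin, so the 2 tamoxifen contrasts had opposite signs without reaching 2-fold.

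CDKN2D, which encodes p19, the INK4 protein that could be measured, read 238 untreated, 851 with romidepsin, 216 with tamoxifen and 762 with the combination. The split between arrays with and without romidepsin matched that of CDKN1A. The rise was 3.57-fold with romidepsin and 3.54-fold for the combination over tamoxifen. Tamoxifen left it 1.11-fold below untreated cells and 1.12-fold below romidepsin alone, and both signs turned when arrays were scaled to the spike-in controls, to log2 values of 0.21 and 0.15. Its second probe set had signals of 7.96 to 12.5 and was below the floor throughout.

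CDKN2B, which encodes p15 and lies on chromosome 9 in a region often deleted in pancreatic cancer, was below the floor on every array. Its probe sets had signals of 3.46 to 6.56 and of 0.712 to 10.7, and no fold is given. Of the listed genes around it, the antisense RNA CDKN2B-AS1 had signals of 1.80 to 15.0 and the transcription factor gene DMRTA1 of 2.35 to 38.4, also below the floor. The brightest probe set of MTAP, an enzyme of methionine salvage that lies 2 protein-coding genes away, read 2496 untreated and 1302 with the combination, a log2 fold of -0.94. The only other probe set of that gene above the floor on any array went the other way in that comparison, at 0.30. KLHL9, a ubiquitin ligase adaptor 9 genes away, read 1037 untreated and 2820.3 with the combination, and FOCAD, farther away, 744 and 1003.

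**Figure D2:**
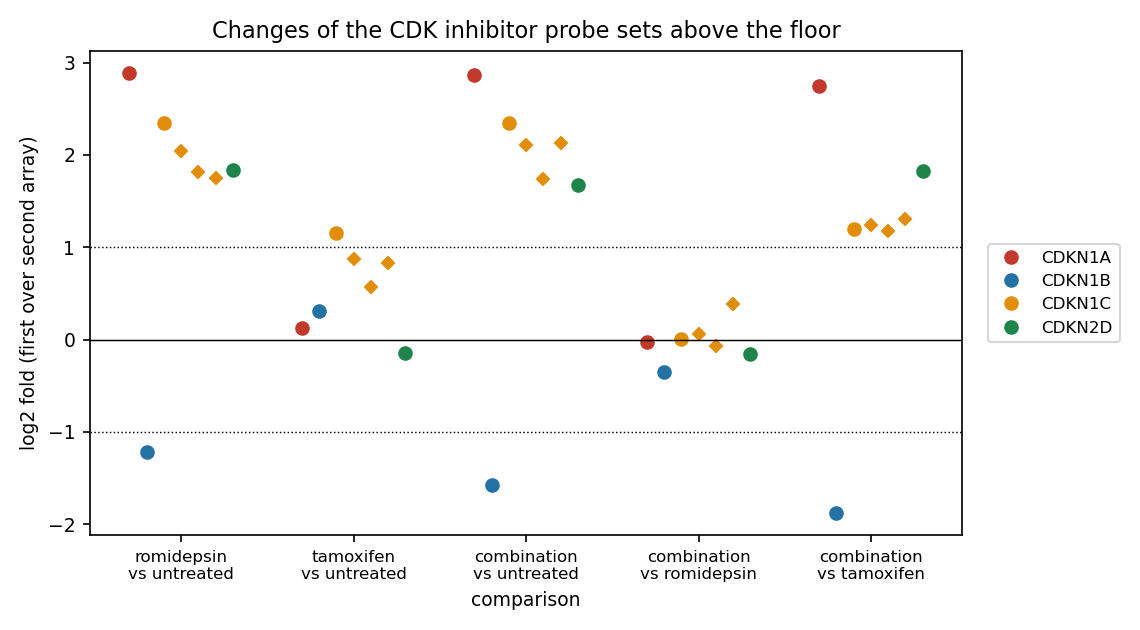
Log2 folds of the 7 CDK inhibitor probe sets above the floor in each of the 5 comparisons; circles are the brightest probe set of a gene, diamonds the other 3 of CDKN1C, and dotted lines mark 2-fold. The 3 comparisons that add romidepsin hold 6 rises and 1 fall each, and no probe set passes 2-fold in the combination against romidepsin.

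Counted over genes, romidepsin alone gave 3 rises and 1 fall among the 4 measured inhibitors. Their median log2 fold was 2.09. Over all 13619 measured genes 14.3% rose and 9.27% fell, and the median was 0.06. Tamoxifen alone gave 1 rise (CDKN1C) and 0 falls, median 0.22, where 3.7% of all genes rose and 1.07% fell. The combination against untreated cells again gave 3 rises and 1 fall, median 2.01, against 19.8% and 14.4% of all genes. These 3 comparisons share the untreated array and are therefore not independent of each other. Under every scaling that was tried, the folds of CDKN1A, CDKN1C and CDKN2D with romidepsin stayed above 2-fold and that of CDKN1B stayed a fall of more than 2-fold.

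Romidepsin added to tamoxifen was read from the combination against tamoxifen alone, which shares no array with romidepsin against untreated. CDKN1A, CDKN1C and CDKN2D rose and CDKN1B fell there too, against 14.8% and 11.8% of all genes. The log2 folds without and with tamoxifen were 2.89 and 2.75 for CDKN1A, 1.84 and 1.82 for CDKN2D, -1.22 and -1.88 for CDKN1B and 2.34 and 1.20 for CDKN1C. The widest gap was that of CDKN1C, whose signal with tamoxifen alone was already 2.23-fold above untreated cells. Of 13098 genes measured in both comparisons, 1488 rose and 1009 fell in both, or 11.4% and 7.7%.

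**Figure D3:**
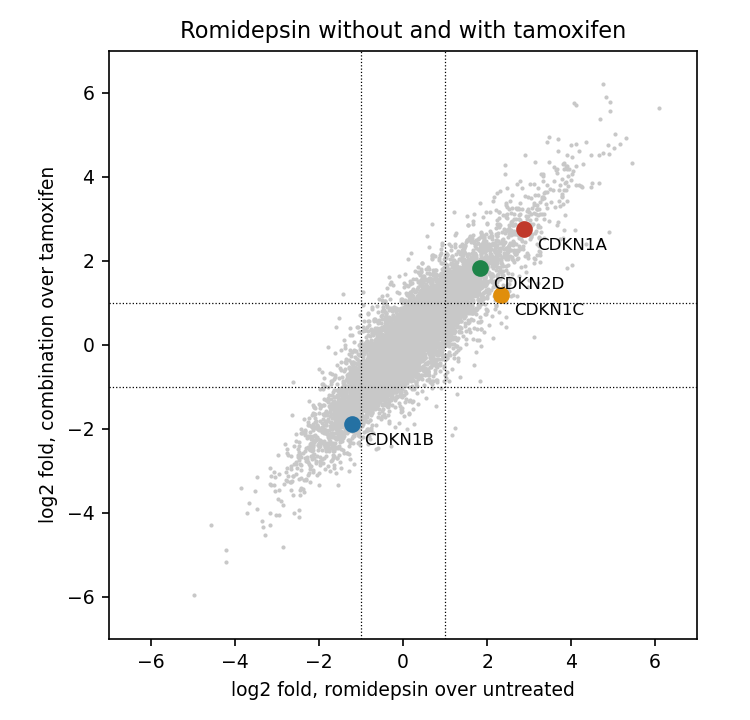
Log2 fold of romidepsin over untreated (horizontal) against the combination over tamoxifen (vertical) for the 13098 genes measured in both (grey) and the 4 measured CDK inhibitors (coloured); dotted lines mark 2-fold. CDKN1A, CDKN1C and CDKN2D lie in the upper right and CDKN1B in the lower left, with CDKN1C, at 2.34 and 1.20, farther from equal values than the other 3.

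Tamoxifen added to romidepsin changed none of the 4 measured genes 2-fold. There 4.07% of all 13726 measured genes rose and 2.27% fell. The log2 folds were -0.02 for CDKN1A, 0.01 for CDKN1C, -0.16 for CDKN2D and -0.35 for CDKN1B. The 3 other CDKN1C probe sets gave -0.07, 0.06 and 0.38. The actin control, whose 3′ to 5′ signal ratio reports on RNA integrity, stood at 1.21 on the untreated array, 1.18 with romidepsin, 1.39 with tamoxifen and 1.73 with the combination, and the part of this in the results was not tested.

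The combination was also set against the sum of the single-drug log2 folds. CDKN1A stood -0.14 from that sum and CDKN2D -0.01, so that both differed from it by less than the 0.25 by which 2 probe sets of a gene typically differ on this measure. CDKN1B stood at -0.66, with a sum of -0.91 and a combination of -1.57. For CDKN1C the sum was 3.50 and the combination 2.35, a departure of -1.15. The other CDKN1C probe sets gave -0.80, -0.64 and -0.44, in the same direction and short of 2-fold. Of 11058 genes above the floor on all arrays, 2.23% stood at least 2-fold below the sum, and the median over these genes was -0.04.

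The targets of the inhibitors were taken from lists, beginning with the D-type cyclins and their kinases, on which INK4 proteins act. With romidepsin 2 of 5 rose and 1 fell, where 14.3% of all measured genes rose and 9.27% fell. Cyclin D2 (CCND2) went from 73.8 untreated to 1867 with romidepsin, 112 with tamoxifen and 1611 with the combination. The romidepsin rise was 25.3-fold from a signal just above the floor, and its 3 measured probe sets ranged from 0.63 to 4.66 on the log2 scale. Cyclin D3 (CCND3) rose 2.65-fold, and CDK4, the kinase that p19 binds, went from 12148 to 5268, a 2.31-fold fall. Cyclin D1 (CCND1) read 6299 untreated, 3179 with romidepsin, 5436 with tamoxifen and 1701 with the combination, which made a 3.70-fold fall with the combination. CDK6 stayed within 1.54-fold of the untreated level on every treated array, and its 5 probe sets went both ways.

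Cyclins E, A and B and their kinases, the targets of the CIP/KIP proteins, gave 4 falls and 0 called rises among 8 measured with romidepsin. Over all measured genes 9.27% fell and 14.3% rose there. The median log2 fold of the list was -0.75, between -0.94 and -0.72 over the scalings tried, with 3 to 4 falls. Cyclin A2 (CCNA2) went from 2723 to 742 with romidepsin and 425 with the combination. Cyclin B1 (CCNB1) fell 3.02-fold and cyclin B2 (CCNB2) 2.85-fold with romidepsin, and 6.36-fold and 5.52-fold with the combination. CDK1, the mitotic kinase, fell 2.01-fold with romidepsin, just past the threshold. Its 3 measured probe sets ranged from -1.01 to -0.81 on the log2 scale. CDK2, the main kinase bound by p21 and p27, was 1.42-fold lower with romidepsin and 1.65-fold lower with the combination. Cyclin E1 (CCNE1) lay within 1.38-fold of the untreated level on every treated array. Cyclin E2 (CCNE2) read 279 with romidepsin and 668 with the combination, a 2.39-fold rise between those arrays. Its other measured probe set had a log2 fold of 0.54 there, short of 2-fold. With romidepsin over untreated cells the 2 probe sets went opposite ways, at -0.34 and 0.47. Cyclin A1 (CCNA1), a germ-line form, was below the floor without romidepsin. It read 102 with romidepsin and 147 with the combination, at least 1.54-fold and at least 2.22-fold above untreated cells. With tamoxifen alone 0 of 7 measured rose or fell as deposited, where 3.7% of all genes rose and 1.07% fell. The second CCNE2 probe set, which does not represent the gene, had a log2 fold of 1.10 there, past 2-fold. When arrays were scaled to spike-ins 1 of the list rose.

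**Figure D4:**
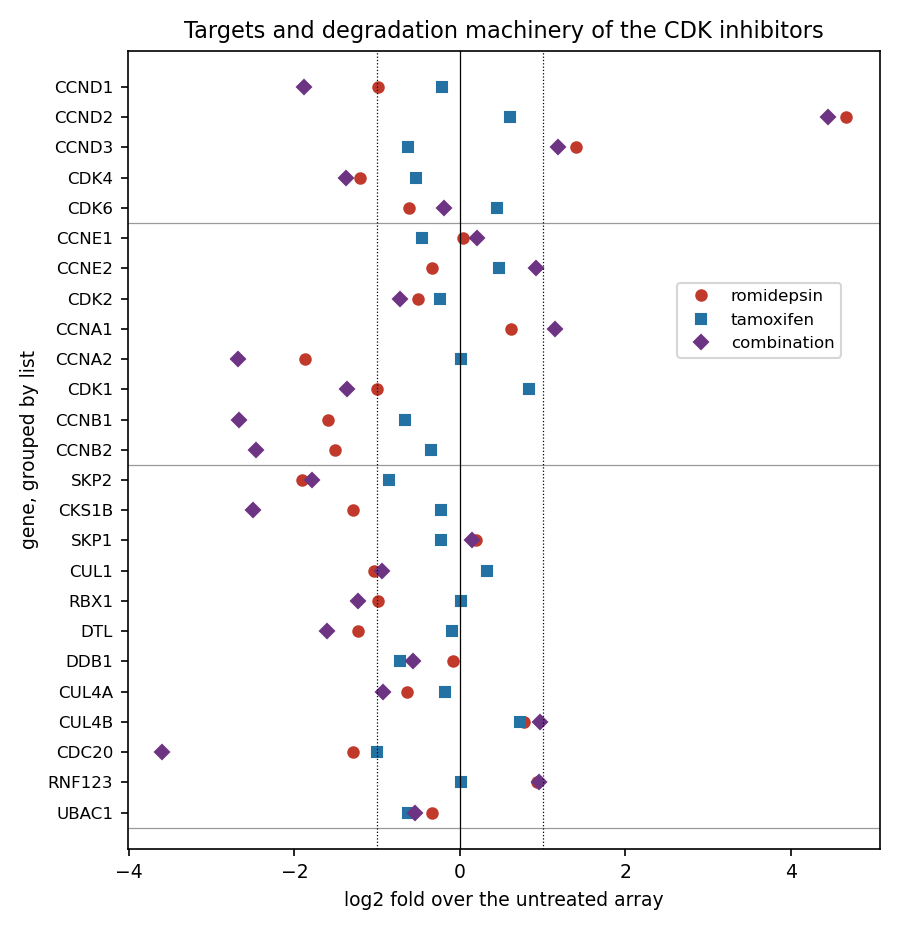
Log2 fold over the untreated array for D-type cyclins and their kinases (top), cyclins E, A and B and their kinases (middle) and ubiquitin ligase parts that degrade CDK inhibitors (bottom), with romidepsin (circles), tamoxifen (squares) and the combination (diamonds); dotted lines mark 2-fold, and CCNA1, below the floor in untreated cells, is drawn at its lower bound. CCND2 stands far to the right at 4.66 and 4.45, and the combination value of CDC20 farthest to the left at -3.60.

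Downstream, 9 of 17 measured genes on a list of the retinoblastoma family and the E2F factors fell with romidepsin and 0 rose (median -1.03). Over all measured genes 9.27% fell and 14.3% rose. The list also holds MYBL2, LIN9, LIN52 and LIN54, which belong to neither family. TFDP2 and RB1 were higher, at log2 folds of 0.98 and 0.69, without reaching 2-fold. E2F8, a repressor of the family, fell 4.28-fold, MYBL2, an E2F target that drives mitotic genes, 3.21-fold, E2F3 2.92-fold and E2F1 2.67-fold. The other measured probe set of E2F3 had a log2 fold of -0.76, short of 2-fold. With the combination 8 fell and 3 rose, where 14.4% of all genes fell and 19.8% rose. MYBL2 was 8.58-fold, E2F2 3.63-fold, E2F8 3.43-fold and E2F1 3.27-fold lower. With tamoxifen 0 of 17 rose or fell as deposited, where 3.7% of all genes rose and 1.07% fell. Over the scalings 0 to 3 of the list rose and 0 to 1 fell with tamoxifen. Probe sets other than the brightest passed 2-fold there, at log2 folds of 1.04 for RBL2, -1.37 for E2F4 and -1.18 for E2F2. The 3 rises with the combination, those of RB1, TFDP2 and LIN54, are named after their values were seen: RB1, the retinoblastoma gene, was at 485 untreated, 781 with romidepsin, 818 with tamoxifen and 1077 with the combination. Across the scalings the list had 9 to 10 falls with romidepsin and 6 to 8 with the combination. The rises with the combination numbered 0 with arrays centred on their medians, 2 after quantile normalization and 3 when scaled to spike-ins.

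Of 12 ubiquitin ligase parts that mark CDK inhibitor proteins for degradation, 5 fell and 0 rose with romidepsin. Over all measured genes 9.27% fell and 14.3% rose. RNF123 and CUL4B were higher, at log2 folds of 0.93 and 0.77, without reaching 2-fold. The median of the list was -0.81 and ranged from -1.01 to -0.76 over the scalings. SKP2, the subunit that recognises p27, went from 2162 untreated to 575 with romidepsin, 1196 with tamoxifen and 626 with the combination. That is a 3.76-fold fall with romidepsin, but its 3 measured probe sets did not share a direction and ranged from -1.91 to 0.25. CKS1B, which SKP2 needs to bind p27, went from 19793 to 8052 with romidepsin and 3494 with the combination. DTL, which marks p21 for degradation during DNA replication, fell 2.34-fold with romidepsin and 3.05-fold with the combination, and both its measured probe sets fell. CDC20, which switches on the anaphase-promoting complex in mitosis, fell 2.45-fold and 12.2-fold. With tamoxifen alone 0 of 12 rose or fell as deposited, where 3.7% of all genes rose and 1.07% fell. The lowest of the 3 measured CUL4A probe sets, which is not its brightest, had a log2 fold of -1.01 there, just past 2-fold. CDC20 was near the threshold at 12955 untreated and 6489 with tamoxifen. With arrays centred on their medians 2 of the list fell, and with spike-in scaling 1 rose.

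Transcription factors known to act on CDK inhibitor genes, listed together with the histone deacetylase genes HDAC1, HDAC2 and HDAC3, had no shared direction. With romidepsin 4 of 20 measured rose and 4 fell, where 14.3% of all genes rose and 9.27% fell. HDAC3 was among the rises, at 2.16-fold. The median of the list, 0.14, ranged from -0.05 to 0.18 over the scalings. EGR1, an activator of CDKN1A, went from 256 untreated to 3713 with romidepsin, 466 with tamoxifen and 3965 with the combination. SMAD3, which carries TGF-beta signals to CDKN1A and CDKN2B, went from 4637 to 522, an 8.88-fold fall. Its 4 measured probe sets ranged from -3.15 to -1.27 on the log2 scale, and the brightest fell the most. CEBPA rose 7.15-fold, and FOXM1, which raises SKP2 and CKS1B expression, fell 5.58-fold. With the combination 3 rose and 4 fell, where 19.8% of all genes rose and 14.4% fell. EGR1 was 15.5-fold higher, FOXM1 9.99-fold lower, SMAD3 9.51-fold lower and MYC, a repressor of CDKN1A, 8.03-fold lower. SP1 and SP3, named here for the GC boxes shown above and after their values were seen, stayed under 2-fold with romidepsin. SP1 was 1.99-fold lower and SP3 1.22-fold lower, and each had 4 measured probe sets of which 1 went the other way.

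Genes near the inhibitors were taken from lists, and their distance was counted along the protein-coding genes in RefSeq. The lists do not hold every gene in between, and that of CDKN1C includes the noncoding KCNQ1OT1. For the counts below, 14.3% of all measured genes rose and 9.27% fell with romidepsin. Beside CDKN1A, the splicing factor gene SRSF3, the nearest listed one, was 1.92-fold lower with romidepsin, and PPIL1 fell 2.09-fold, while STK38 and C6orf89 were 1.27-fold and 1.79-fold higher; of 4 measured neighbours 0 rose. Beside CDKN1C, the potassium channel gene KCNQ1 rose 2.90-fold, from 219 to 635, with a second probe set at a log2 fold of 0.19. The imprinted PHLDA2 was 1.13-fold lower, NAP1L4 1.20-fold lower and CARS1 1.26-fold lower, and 1 of 5 measured neighbours rose. KCNQ1OT1, the long RNA that silences CDKN1C in cis, read 103 untreated, 95.9 with romidepsin, 56.3 with tamoxifen, which is below the floor, and 206 with the combination. Beside CDKN1B, APOLD1 read 293 untreated, 141 with romidepsin, 440 with tamoxifen and 102 with the combination, a 2.07-fold fall with romidepsin. GPR19, on the other side, was 1.20-fold lower, and GPRC5D rose at least 2.01-fold from below the floor. The orphan receptor gene GPRC5A had a log2 fold of -0.73, and its 3 measured probe sets ranged from -1.22 to -0.67, so that the lowest matched the -1.22 of CDKN1B. CREBL2 had a log2 fold of 0.92, and its 3 measured probe sets ranged from 0.92 to 1.26, so that the highest passed 2-fold upward. DUSP16 had a log2 fold of 0.23. Around CDKN2C 1 of 4 measured neighbours rose, the endocytosis gene EPS15, by 2.25-fold; FAF1, TTC39A and RNF11 had log2 folds of -0.30, -0.16 and 0.79. Beside CDKN2D, the clathrin adaptor gene AP1M2 fell 5.04-fold, and KEAP1, the sensor of oxidative stress, 4.44-fold, and 0 of 7 measured neighbours rose. The other measured neighbours of CDKN2D had log2 folds of -0.45 for KRI1, -0.08 for S1PR5, 0.11 for ATG4D, 0.70 for SLC44A2 and 0.93 for CDC37. By brightest probe sets, no measured neighbour moved as far as CDKN1A, CDKN1B, CDKN1C or CDKN2D in the direction of the inhibitor it lies beside.

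**Figure D5:**
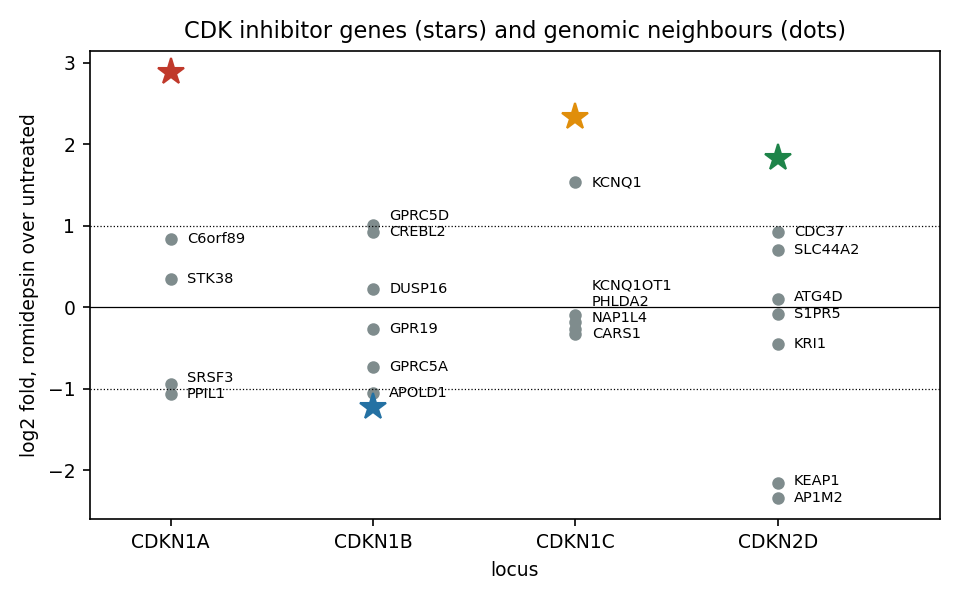
Log2 fold of romidepsin over untreated for 4 CDK inhibitor genes (stars) and their listed genomic neighbours above the floor on at least 1 of the 2 arrays (dots), by the brightest probe set of each gene; dotted lines mark 2-fold, and labels are shifted where they would overlap. CDKN1A, CDKN1C and CDKN2D stand above every plotted neighbour of theirs, and CDKN1B lies closest to APOLD1.

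Genes with the most similar patterns were sought by the Euclidean distance between the 3 log2 folds over untreated cells, among 11058 genes above the floor on all 4 arrays. The folds share the untreated array, and 3 values make a coarse measure. For CDKN1A the nearest were RASD1, a RAS-like GTPase, at 0.15, the ephrin EFNA3 at 0.19 and the transcription factor MEF2C at 0.21, and 24 genes lay within 0.5. For CDKN2D they were EID3 at 0.05, LAIR1 at 0.10 and AIF1L at 0.12, with 112 within 0.5. For CDKN1B they were the sulfatase ARSD at 0.05, the deubiquitinase USP24 at 0.07 and the membrane-cytoskeleton linker SVIL at 0.07, with 169 within 0.5. CDKN1C had the fewest near neighbours, 14 within 0.5, led by DYNC1I1, a dynein chain, at 0.23, GOLGA7B at 0.28 and OASL at 0.32. Untreated signals of those 3 genes lay between 68.6 and 79.8, close to the floor. The same held for MEF2C, at 68.3 untreated, and LAIR1, at 78.4.

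The cell line label was checked against markers. Keratin genes KRT8 (9154 untreated), KRT18 (25361) and KRT7 (780) and the mesenchymal filament gene VIM (38695) were above the floor on all arrays, while KRT19 was below it on all 4. Of 4 fibroblast markers 1, DCN, was above the floor, and of 3 leukocyte markers with a probe set 0 were. Of 5 epithelial markers above the floor on any array, 2 rose and 3 fell with the combination. Over all measured genes 19.8% rose and 14.4% fell. The adhesion genes EPCAM and CDH1 rose, from 64.3 and 223 untreated to 475 and 874, while KRT8 fell 2.20-fold, KRT18 2.24-fold and KRT7 3.86-fold. The 2 measured probe sets of KRT7 had log2 folds of -1.95 and -0.84, the latter short of 2-fold. Of 4 endothelial markers, PECAM1 was above the floor on all arrays and KDR and VWF on the 2 arrays with romidepsin, KDR at 328 and 291. The summed endothelial signal was 158 untreated, 564 with romidepsin, 217 with tamoxifen and 539.8 with the combination, with CDH5 below the floor throughout; the part of this in the results was not tested. Median signals ranged from 59.5 to 73.0 over the arrays, and hybridization spike-ins on the tamoxifen and combination arrays stood at 0.78 and 0.82 times the untreated level. Scaling to those spike-ins moved the median log2 fold of all genes from 0.01 to 0.33 with tamoxifen and from 0.09 to 0.34 with the combination, and centring arrays on their medians moved them to -0.13 and -0.17, so tamoxifen values within that range have no settled sign.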

How the data were processed

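Total RNA was labelled from 100 ng with a 3′ IVT kit and hybridized, per the labels' protocols. The deposited values are MAS5 signal intensities on a linear scale, per the submitters' processing notes, made by the authors; the software version was not given in the sources. The mean after trimming 2% of values at each end was 500.1 on every array. Scanner files were not used here. The annotation states no genome build. Columns of other samples numbered 0.

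Of 54675 probe sets 62 are controls, 41097 name 1 gene and 1801 several. Symbols were checked by Entrez ID against RefSeq (GRCh38.p14), which matched 41043 and changed 0. The brightest probe set by mean log2 signal represents a gene. Signals were floored at the median of all, 66.4, and log2 folds taken between arrays across all genes; a gene was measured where 1 of the 2 arrays exceeded the floor and called at 2-fold. No test was possible with 1 array per group, and the number of arrays limits precision.

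The members and lists were chosen with earlier results of these data known. Members were named with every probe set. Genes of lists of up to 8 could all be named; of longer lists the 4 largest folds were named in each comparison, and any other name was chosen after its values were seen. The 3 nearest genes by pattern were named. Alternatives varied scaling, floor, probe set and fold. Python 3.11.15, numpy 2.4.6, pandas 2.3.3 and matplotlib 3.10.9 were used, and the steps were tested on simulated data.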

Additional observations from a re-analysis of the deposited data

Results flagged for a closer look

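CDKN1B drew attention because its tamoxifen contrast pointed one way in cells without romidepsin and the other way in cells with it. Tamoxifen alone was 0.31 above untreated cells on the log2 scale, and the combination was 0.35 below romidepsin, written as -0.35, which gives a departure of -0.66 from the sum of the single drugs. Each contrast compares 1 array with 1 array, neither reached 2-fold, and the difference was not tested. As deposited, both contrasts exceeded the median difference between 2 probe sets of a gene, 0.22 and 0.21. With arrays centred on their medians the first was 0.16, and with arrays scaled to spike-ins the second was -0.05, both smaller than that difference. Of 11058 genes above the floor on all arrays, 578 had opposite contrasts past that difference as deposited, or 5.23%. The departure lay between -0.71 and -0.62 over the alternative settings. A high percentile of the difference between 2 probe sets, in place of its median, was 0.67 and 0.66 for the contrasts. For the departure it was 0.79. As deposited, both contrasts and the departure were smaller in size than these values. The departure was larger in size than its median of 0.25, as both contrasts were than theirs. The technical spread therefore does not settle whether they are technical. That spread compares probe sets on the same arrays and does not measure variation between cultures. The gap of a sample to the rest of its group could not be examined, since each group holds 1 array.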

How the results depend on the processing

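Over 20 log2 folds of the 4 measured genes and the alternatives in scaling, floor and probe set, 149 values were computed, of which 146 stayed on their side of 2-fold, 3 fell under it and 0 of those past it reversed. Many of the 146 could not differ from the main values, so that count overstates stability. A lower floor or none could not move genes above the main floor on every array. The median over probe sets could move CDKN1C only. Leaving out a class of probe sets could not move CDKN1B or CDKN1C. The 3 that fell under 2-fold were CDKN2D with the floor at the 75th percentile, 0.90 in the combination against untreated and 0.90 against tamoxifen, where the floor lifts the lower array, and CDKN1C with tamoxifen as the median over its probe sets, 0.85. That median left 0 genes changed by tamoxifen and 0 genes 2-fold from the sum of the single drugs (CDKN1C at -0.72). Counting only 3-fold changes also left 0 with tamoxifen. Without probe sets of the class that can match several transcripts, CDKN1A has no probe set and CDKN2D only the dim one, which left 2 changed genes in each of romidepsin against untreated, combination against untreated and combination against tamoxifen. With arrays centred on their medians the share of rises among all calls went from 60.7% to 47.4% with romidepsin, from 77.5% to 48.0% with tamoxifen and from 57.9% to 41.2% with the combination; scaled to spike-ins it was 98.3% with tamoxifen and 72.8% with the combination, and after quantile normalization 63.2% with tamoxifen. In the combination against romidepsin it was 64.2% as deposited, 46.4% centred and 93.7% scaled to spike-ins. Tamoxifen calls over all genes went from 483 rises and 140 falls to 293 and 317 when centred and 1526 and 27 when scaled to spike-ins. No paired analysis was possible because each group holds 1 array. Leaving out a replicate was not possible for the same reason.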

Other observations

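Of 25 listed p53 target genes other than CDKN1A, 20 were above the floor on at least 1 array, and they did not share the direction of CDKN1A. With romidepsin 4 rose and 4 fell, where 14.3% of all measured genes rose and 9.27% fell. The median of the list, 0.02, ranged from -0.17 to 0.02 over the scalings tried. TP53INP1, a stress-response and autophagy gene, read 65.9 untreated, 638 with romidepsin, 358 with tamoxifen and 1587 with the combination; the untreated value is under the floor, so it was at least 9.61-fold higher with romidepsin. ZMAT3, an RNA-binding protein, rose 2.78-fold, while AEN, a nuclease, fell 5.67-fold and TP53I3, an oxidoreductase, 3.06-fold. With tamoxifen 1 of 20 rose and 0 fell as deposited, where 3.7% of all genes rose and 1.07% fell. Over those scalings 1 to 3 of the list rose with tamoxifen and 0 fell. Probe sets other than the brightest ranged up to a log2 fold of 1.04 for ZMAT3 and down to -1.46 for POLH, both past 2-fold. With the combination 6 rose and 4 fell, where 19.8% of all genes rose and 14.4% fell. The median of the list was 0.28, with a range of -0.01 to 0.31 over those scalings.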
